A study of Mus musculus with 6 samples.

Results

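The Hox genes of the mouse are 39 protein-coding genes in 4 clusters, and they were taken here by gene symbol alone, as the protein-coding rows named Hoxa to Hoxd with a paralog number. They made up 39 of the 21884 protein-coding genes and of the 55565 genes listed in all, with 11 genes in HoxA on chromosome 6, 10 in HoxB on chromosome 11, 9 in HoxC on chromosome 15 and 9 in HoxD on chromosome 2. Their RNA was measured by bulk RNA sequencing in mouse embryonic fibroblasts (MEFs) of 2 genotypes, wild type (WT, Mcm8+/+) and Mcm8 knockout (KO, Mcm8-/-), with 3 libraries each. Mcm8 encodes a helicase of the minichromosome maintenance family that acts in homologous recombination. The comparison asks which Hox genes differ in level between KO and WT MEFs.

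Both genotypes were derived from E13.5 embryos of crosses between heterozygous parents, whose background was mixed from C57BL/6J and ICR. MEFs of both genotypes were grown from the minced trunk after head, tail, limbs, heart and liver had been removed, were immortalized with a lentivirus carrying SV40gp6 and were selected with puromycin. The trunk holds skin, body wall, vertebral, visceral and urogenital mesenchyme, so cells of several axial levels and organs can be mixed in a culture. In such bulk samples, fewer cells of a type and less RNA per cell cannot be told apart. The study's methods call the 3 repeats of a genotype biological, without saying whether they came from separate embryos or cultures, and p-values measure the spread between these libraries.

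Hox proteins are homeodomain transcription factors that give cells their position along the head-to-tail axis. Within a cluster the genes lie in the order of their paralog numbers, and low numbers are switched on earlier and further to the front than high numbers. Fibroblasts keep much of the Hox pattern of the body site they came from. Retinoic acid, CDX and FGF and WNT signals set the pattern, Polycomb and Trithorax complexes maintain it, and PBX, MEIS and other TALE homeodomain proteins bind DNA together with HOX proteins.

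The clusters also hold microRNA genes that act back on Hox transcripts, and their mature sequences are shown because the same short seed links members of different clusters. In RefSeq on build GRCm38.p6, Mir196b lies in HoxA at chr6:52230129-52230150 (minus strand), Mir196a-1 in HoxB at chr11:96265187-96265208, Mir10a in HoxB at chr11:96317186-96317208, Mir196a-2 in HoxC at chr15:102973365-102973386 and Mir10b in HoxD at chr2:74726074-74726096 (all plus strand). Capitals mark the seed, bases 2 to 8. The miR-196 pair shares 1 seed and the miR-10 pair another.
miR-196a-5p: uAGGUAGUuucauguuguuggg
miR-196b-5p: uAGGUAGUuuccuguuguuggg
miR-10a-5p: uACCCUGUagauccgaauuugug
miR-10b-5p: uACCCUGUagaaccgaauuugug

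The 7 bases that pair with the miR-196 seed, ACTACCT, occurred in the longest annotated 3' UTR (GENCODE M21) of 9 of 39 Hox genes, against 6.10% of 21000 genes. Sites are shown for Hoxa7, which held 4, for Hoxc8, which held 2, and for Hoxa5 and Hoxa9, and each was read over the 22 bases that lie against the microRNA, with the seed match in capitals. Of the genes whose sites are shown, Hoxa5 and Hoxa9 rose in KO MEFs, Hoxc8 fell and Hoxa7 did not pass the test. The bases that pair with the miR-10 seed, ACAGGGT, occurred in 4 of 39, Hoxa3 and Hoxb3 among them, against 12.5% of 21000 genes. A seed match is a description of the transcript, and mature microRNAs were not measured by these libraries.
Hoxa5 site at UTR bases 456 to 462: atatttttattcaaACTACCTa
Hoxa7 site at UTR bases 310 to 316: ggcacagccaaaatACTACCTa
Hoxa7 site at UTR bases 347 to 353: agaggcactcccaaACTACCTa
Hoxa7 site at UTR bases 479 to 485: aaaccatgatcaatACTACCTa
Hoxa7 site at UTR bases 500 to 506: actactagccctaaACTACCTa
Hoxa9 site at UTR bases 337 to 343: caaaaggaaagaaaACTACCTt
Hoxc8 site at UTR bases 135 to 141: cactcacaactctaACTACCTg
Hoxc8 site at UTR bases 892 to 898: taaatctttaacatACTACCTa

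The promoter bases are shown for the members at which the pattern turned, namely Hoxa6, the member of HoxA with the highest fold change, and the neighbours Hoxd8, Hoxd9 and Hoxd10. RefSeq promoter windows on GRCm38.p6 were matched for 22 of 39 members, in 24 windows, and the 250 bases before the annotated start are printed 5' to 3' on the gene's strand. They are chr6:52208673-52208922 (minus strand) for Hoxa6, and chr2:74704365-74704614, chr2:74697513-74697762 and chr2:74691641-74691890 (plus strand) for Hoxd8, Hoxd9 and Hoxd10. Capitals mark the CCAAT box, read on either strand, so that ATTGG is its reverse.
Hoxa6 upstream: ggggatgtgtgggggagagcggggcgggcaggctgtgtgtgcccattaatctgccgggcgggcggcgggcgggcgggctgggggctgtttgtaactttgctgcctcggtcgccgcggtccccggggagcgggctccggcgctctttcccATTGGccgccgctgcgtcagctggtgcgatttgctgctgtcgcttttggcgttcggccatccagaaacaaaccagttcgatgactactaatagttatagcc
Hoxd8 upstream: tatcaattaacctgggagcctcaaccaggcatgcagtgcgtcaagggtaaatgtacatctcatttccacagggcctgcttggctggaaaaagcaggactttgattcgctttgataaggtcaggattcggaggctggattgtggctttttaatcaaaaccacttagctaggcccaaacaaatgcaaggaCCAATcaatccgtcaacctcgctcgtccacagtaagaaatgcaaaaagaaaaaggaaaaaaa
Hoxd9 upstream: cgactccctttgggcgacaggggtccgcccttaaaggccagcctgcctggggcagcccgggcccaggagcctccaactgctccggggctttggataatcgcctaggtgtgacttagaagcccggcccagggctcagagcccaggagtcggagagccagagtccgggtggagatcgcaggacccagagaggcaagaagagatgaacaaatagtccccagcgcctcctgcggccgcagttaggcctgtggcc
Hoxd10 upstream: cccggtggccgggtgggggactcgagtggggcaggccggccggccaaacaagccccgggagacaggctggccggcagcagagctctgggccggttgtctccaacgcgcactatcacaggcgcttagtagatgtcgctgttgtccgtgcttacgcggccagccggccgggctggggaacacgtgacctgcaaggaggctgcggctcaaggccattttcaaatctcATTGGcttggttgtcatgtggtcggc

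The stretches of Hoxa6, Hoxd9 and Hoxd10 were rich in G and C, at 65.2%, 65.2% and 65.6%, and held 24, 13 and 20 CpG dinucleotides. The stretch of Hoxd8, the member that fell, held 44.4% G and C and 6 CpG. Low values were also found upstream of Hoxa9, which rose, at 49.6% and 3 CpG. Over the full windows the median was 57.7% G and C for the 24 Hox windows and 52.7% for those of all genes. Over the full windows of 300 bases, CCAAT was found in 15 of 24 Hox windows and in 37.4% of 32851 windows of all genes. TAATTA, the core of many homeodomain sites, was found in 2 of 24 and in 5.29% of all. TGATTNAT, the letters of a joint PBX and HOX site, was found in 2 of 24 and in 3.22% of all. TATAAA was found in 4 of 24 against 13.6%, and the direct repeat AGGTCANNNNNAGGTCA, the letters of a retinoic acid response element, was in 0 of 24 and in 0.00913% of all. All 5 motifs were searched on both strands, and no motif contains another. These matches describe letters in the window, not binding.

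In KO MEFs the counts of the whole Mcm8 gene, as CPM, which are counts scaled to a fixed library total with factors from the trimmed mean of M values (TMM), were 4.20, 4.45 and 4.12, against 13.8, 16.6 and 12.8 in WT. They did not reach 0 in KO libraries, and the count covers the whole gene, also the exons that were not deleted. Mcm8 shares chromosome 2 with HoxD and lies 58.1 Mb from it. Library totals ranged from 12722979 to 21022755 counts, so members with few counts were measured less closely. WT1 stood apart from the other WT libraries: the chi-square of the counts per degree of freedom was 14.3 and 13.2 against WT2 and WT3, 4.40 between WT2 and WT3, and 2.63 to 3.05 between KO libraries. Without WT1, 8 Hox genes were higher and 2 lower in KO, and the calls of Hoxa9, Hoxc8 and Hoxc10 were lost while Hoxa7 gained one. Xist, the RNA of the silenced X chromosome, had 940.3 to 1359 CPM in WT and 474.3 to 494 in KO libraries. All 4 Y-linked genes tested were higher in KO, with a summed level of 24.3 to 25.9 CPM in WT and 107.9 to 125.6 in KO libraries. Sex-linked genes thus differed along with the genotype, and their part in the Hox results was not tested.

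The Hox total hardly moved between genotypes, while its division among the clusters did. FPKM values, the authors' fragments per kilobase of gene scaled for sequencing depth, summed over the 39 members to 250.05, 224.3 and 239.6 in WT and to 237.8, 232.9 and 235.9 in KO libraries. The ranges overlap. The HoxA sum was 34.1, 32.4 and 31.7 FPKM in WT and 47.3, 48.9 and 48.7 in KO, so that all KO libraries lay above all WT libraries. HoxA made up 13.8% ± 0.609 (SD, n = 3) of the summed Hox FPKM in WT and 20.5% ± 0.558 in KO. The HoxB sum was 118.5, 109.3 and 117.8 FPKM in WT and 105.1, 101.6 and 106.3 in KO, and every KO library lay below every WT library. Within HoxB, Hoxb9 and Hoxb13 together were also apart, at 57.6 to 62.6 FPKM in WT and 49.2 to 53.8 in KO. Hoxb4 to Hoxb8 together overlapped, at 48.0 to 57.6 FPKM in WT and 48.1 to 53.6 in KO. The HoxC sums overlapped, with 76.1 to 89.96 FPKM in WT and 75.2 to 79.6 in KO. HoxD was the cluster with the lowest sum, 6.57 to 7.42 FPKM in WT and 5.75 to 6.60 in KO, and these ranges overlap as well. The sums are descriptions, and the difference between clusters was not tested.

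**Figure D1:**
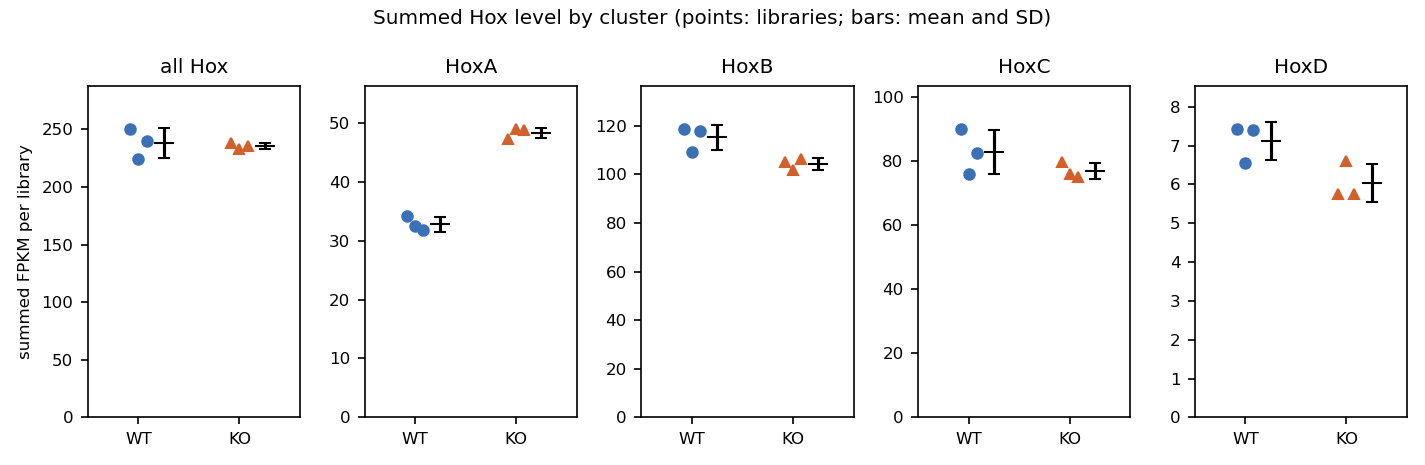
Summed FPKM (y axis, from 0) of all Hox genes and of each cluster in WT (circles) and KO (triangles) libraries, with the mean and SD of 3 libraries as a bar. HoxA is at 31.7 to 34.1 in WT and 47.3 to 48.9 in KO, whereas the sum of all members is at 224.3 to 250.05 and 232.9 to 237.8.

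A level above 1 FPKM on average was reached by 26 of 39 members in WT and by 26 in KO. In WT these were 8 of 11 in HoxA, 8 of 10 in HoxB, 9 of 9 in HoxC and 1 of 9 in HoxD, which was Hoxd8. In KO they were 9, 7, 8 and 2. Members of the middle and rear of the clusters carried the signal. Paralog groups 4 to 8, taken over the 4 clusters, held 48.0% ± 1.29 (SD, n = 3) of the Hox FPKM in WT and 49.6% ± 2.15 in KO, and groups 9 to 13 held 49.4% ± 1.10 and 47.6% ± 1.95. Groups 1 to 3, the front-most genes, held 2.56% ± 0.192 and 2.74% ± 0.220.

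Hoxb9, a gene of the thoracic region, stood at the head of the order in both genotypes. Its level was 56.6, 57.4 and 61.9 FPKM in WT and 53.3, 48.6 and 49.99 in KO, above every other member in every library. Next in WT came Hoxc10 with 20.2 to 24.7, Hoxb6 with 19.6 to 22.0 and Hoxc6 with 17.9 to 22.4 FPKM, and these 3 overlap. In KO the order was Hoxb6 with 18.7 to 22.3, Hoxc6 with 18.6 to 21.0 and Hoxc10 with 16.7 to 20.7 FPKM, again with overlap, and then Hoxa10 with 12.3 to 13.9. Hoxd8 was 11th in WT and 20th in KO, Hoxa6 was 17th and 11th, and Hoxd10 was 37th and 30th of the 39.

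The ends of the clusters were close to silent. Hoxb1, a gene of the hindbrain, was at 0 in all 6 libraries and was not tested. Hoxd12 had 1 count in all. Hoxa13 had 0 to 5 counts in a library in WT and 1 to 4 in KO. Hoxa13 and Hoxd13, which act in the hand, foot and genital tubercle, were below 0.3 FPKM in every library. At least 1 count in every library was found for 32 of the 39 members.

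**Figure D2:**
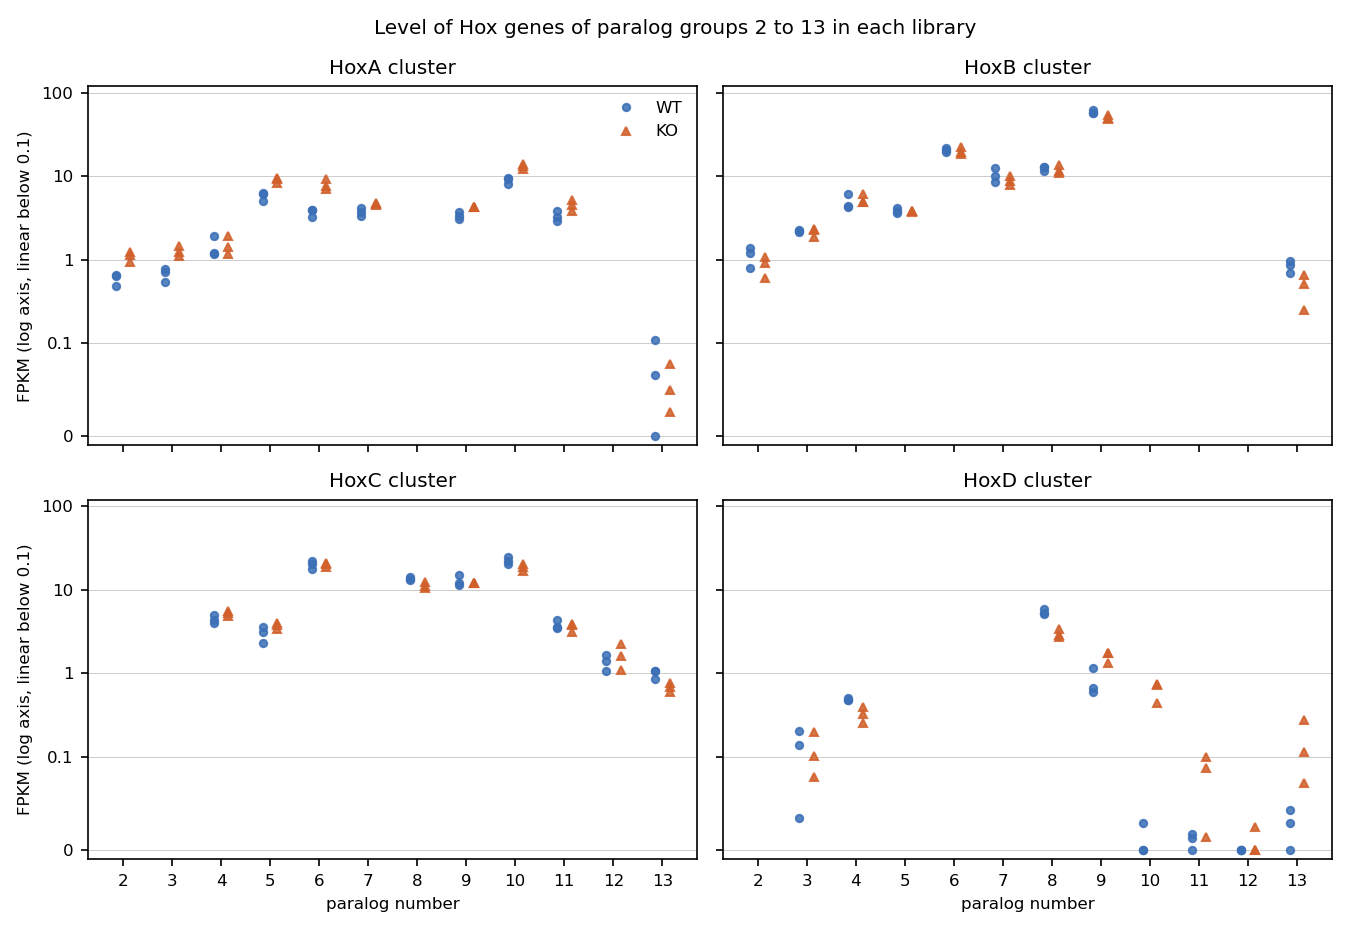
FPKM of the Hox genes of paralog groups 2 to 13 (y axis, logarithmic above 0.1 and linear below) against its paralog number, 1 panel per cluster, with each point 1 library, circles for WT and triangles for KO. The HoxB and HoxC points of both genotypes lie close to each other from paralog 3 to 12, the HoxA triangles sit above the circles at paralogs 2, 3, 5, 6, 7, 9, 10 and 11, and in HoxD the order of the genotypes turns between paralogs 8 and 9.

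Of the 39 members 38 could be tested. With edgeR's quasi-likelihood test and Benjamini-Hochberg adjustment over all 26898 genes tested, 8 of 38 were higher in KO MEFs at an adjusted p below 0.05, against 4.97% of all genes tested, and 4 of 38 were lower, against 4.03%. The 8 were Hoxa3, Hoxa5, Hoxa6, Hoxa9, Hoxa10, Hoxa11, Hoxd9 and Hoxd10, and the 4 were Hoxb9, Hoxc8, Hoxc10 and Hoxd8. With a log2 fold change above 1 as well, 2 of 38 were differentially expressed genes (DEGs) that rose, Hoxa6 and Hoxd10, against 1.75% of all genes tested, and 0 of 38 were DEGs that fell, against 0.665%. No member fell more than 2-fold at an unadjusted p below 0.05 either, and DESeq2 and limma-voom likewise gave 0. The libraries of the genotypes did not overlap in 11 members that were higher in KO, against 11.6% of all genes tested, and in 7 that were lower, against 10.1%. The median log2 fold change was -0.0046 over the 38 members and 0.01 over all genes tested, so the members moved in both directions. Highly counted genes are called more readily: among 13222 genes with a mean of at least 1 CPM, 9.08% were higher and 7.88% lower, and among the 31 Hox genes of that kind 7 were higher and 4 lower. With 3 libraries against 3, an exact permutation test of a single gene cannot give a two-sided p below 0.10.

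The calls were uneven in their footing. Hoxa3, Hoxa5, Hoxa6, Hoxa10, Hoxd8 and Hoxd10 passed with DESeq2, with limma-voom and without any 1 of the 6 libraries. Hoxa9, Hoxa11, Hoxb9, Hoxc8, Hoxc10 and Hoxd9 each lost the call in some of these settings, given beside each gene.

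**Figure D3:**
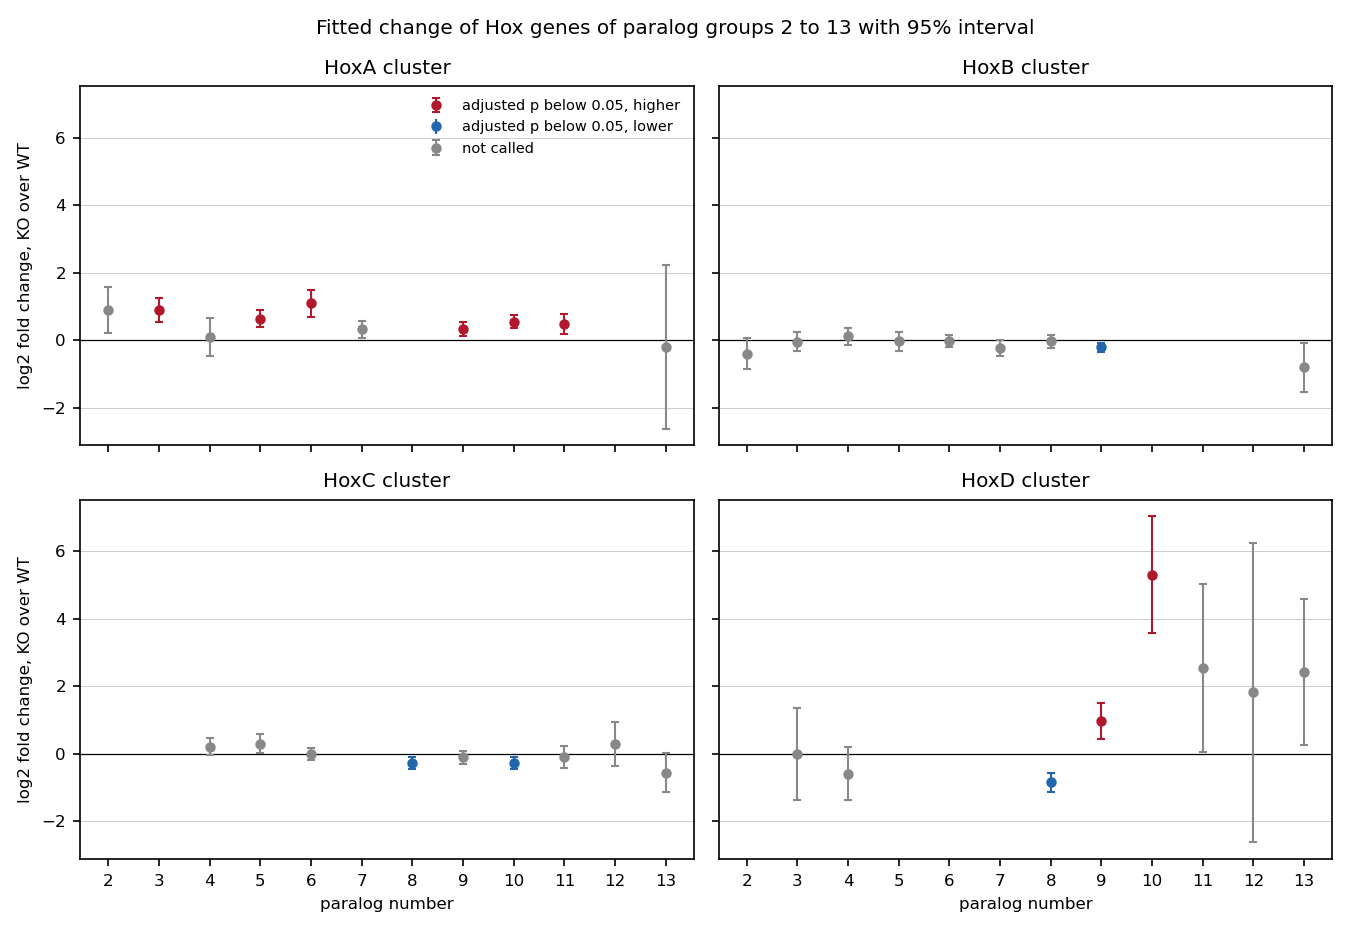
Fitted log2 fold change of KO over WT (y axis) with its 95% interval against paralog number for the members of paralog groups 2 to 13 that were tested, 1 panel per cluster, red for members that passed the test and were higher, blue for lower and grey for the rest. The HoxA points at paralogs 3, 5, 6, 9, 10 and 11 are red, Hoxb9, Hoxc8 and Hoxc10 are blue and close to 0, the grey points of Hoxb13 and Hoxc13 are lower, at -0.81 and -0.56, and in HoxD the blue point at 8 is next to the red points at 9 and 10.

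Most of the Hox genes that rose in KO MEFs lay in HoxA. Of its 11 members, 6 were higher, 0 were lower (also 0 at an unadjusted p below 0.05, and 0 with DESeq2 and limma-voom), and the median log2 fold change was 0.47, against 4.97% higher and 4.03% lower among all genes tested. The libraries of both genotypes did not overlap in 8 of the 11, all higher in KO, against 11.6% of all genes tested.

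Hoxa3, which patterns the pharyngeal arches, thymus and parathyroid, was at 0.547, 0.769 and 0.716 FPKM in WT and 1.47, 1.10 and 1.23 in KO. All KO libraries lay above the WT libraries. The log2 fold change was 0.90 ± 0.19 (SE, n = 3 per genotype), with an adjusted p of 4.23e-05 by edgeR's quasi-likelihood test. The annotated span of Hoxa3, chr6:52146042-52190316 in the deposited table, covers Hoxa4, Hoxa5 and Hoxa6, so reads of these genes and of an extended Hoxa3 transcript may have been divided by the authors' counting.

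Hoxa5, needed for lung development and the cervical and upper thoracic skeleton, was at 6.14, 6.22 and 4.98 FPKM in WT and 8.20, 9.48 and 9.21 in KO. The lowest KO library stood above the highest WT library. The log2 fold change was 0.64 ± 0.13 and the adjusted p (edgeR) was 2.00e-05. Its neighbour Hoxa6, at chr6:52183268-52185702, was at 3.23, 3.91 and 3.95 FPKM in WT and 6.98, 7.68 and 9.25 in KO. Hoxa6 had a log2 fold change of 1.09 ± 0.20, with a 95% interval that started at 0.70 and an adjusted p (edgeR) of 2.27e-06, and it is 1 of the 2 Hox DEGs. Without KO3 its log2 fold change was 0.98, below the DEG threshold, and it did not pass edgeR's test against a 2-fold change.

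Further to the rear of the cluster, at Hoxa9, Hoxa10 and Hoxa11, the fold changes were smaller than at Hoxa3, Hoxa5 and Hoxa6. Hoxa10, which acts in the lumbar spine and the uterus, was at 9.61, 8.08 and 9.13 FPKM in WT and 13.1, 13.9 and 12.3 in KO, the highest level in HoxA. The log2 fold change was 0.55 ± 0.09 and the adjusted p (edgeR) was 1.73e-07. No library of Hoxa10 crossed into the range of the other genotype.

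Hoxa9, also known from blood stem cells and leukaemia, was at 3.09, 3.29 and 3.74 FPKM in WT and 4.25, 4.30 and 4.30 in KO. The log2 fold change was 0.34 ± 0.11 with an adjusted p (edgeR) of 0.0256. That call was lost with DESeq2 (adjusted p = 0.0756) and limma-voom (0.0858) and without any of WT1, WT2, KO1, KO2 or KO3, where it rose to at most 0.109. Hoxa11, which patterns the forearm and lower leg, the kidney and the uterus, was at 3.84, 3.24 and 2.88 FPKM in WT and 5.25, 3.88 and 4.48 in KO, with KO2 only just above WT1. The log2 fold change was 0.47 ± 0.15 with an adjusted p (edgeR) of 0.0262, which became 0.137 with DESeq2, 0.1004 with limma-voom and at most 0.371 without any of WT2, WT3, KO1 or KO3.

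The other members of HoxA did not pass. Hoxa2, the gene of the second pharyngeal arch, had 11, 16 and 22 counts in WT and 47, 34 and 27 in KO. Its log2 fold change was 0.89 ± 0.35 with an adjusted p (edgeR) of 0.102, although its libraries did not overlap. Hoxa7 had a log2 fold change of 0.32 ± 0.13, also without overlap, and an adjusted p of 0.142 (edgeR), and 0.0458 without WT1. Hoxa4 and Hoxa13 lay at 0.09 ± 0.29 and -0.21 ± 1.24, and their libraries overlapped. The 95% interval of Hoxa4 ran from -0.47 to 0.65, so a change of the size seen in Hoxa5 lay within it.

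In HoxB and HoxC the members that passed the test were all lower in KO. Of 18 members tested in these clusters 0 were higher in KO (1 at an unadjusted p below 0.05, Hoxc5, and 0 with DESeq2 and limma-voom) and 3 were lower, Hoxb9, Hoxc8 and Hoxc10, to 86.3%, 82.6% and 83.6% of WT. Among all genes tested 4.97% were higher and 4.03% lower, or 9.08% and 7.88% of those with a mean of at least 1 CPM, so that 0 of 18 higher is near the background. The median log2 fold change was -0.04 in HoxB and -0.09 in HoxC.

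Hoxb9, whose values are given above, fell by 0.21 ± 0.07 on the log2 scale, to 86.3% of WT, with an adjusted p of 0.0413 by edgeR. Its libraries did not overlap. The call held with DESeq2 (adjusted p = 0.0410), not with limma-voom (0.0529), and was lost without any of WT3, KO1, KO2 or KO3, with an adjusted p of at most 0.309. Hoxc8, a lower thoracic gene also of brachial motor neurons, was at 14.4, 13.2 and 13.4 FPKM in WT and 11.2, 12.3 and 10.4 in KO. It fell by 0.28 ± 0.09 on the log2 scale with an adjusted p of 0.0383 by edgeR, 0.0845 with DESeq2, 0.0948 with limma-voom and at most 0.365 without any of WT1, WT3, KO1 or KO3.

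Hoxc10, a lumbar gene of the hindlimb level, was at 24.7, 20.2 and 22.2 FPKM in WT and 20.7, 18.5 and 16.7 in KO, and WT2 lay below KO1. It fell by 0.26 ± 0.09 on the log2 scale with an adjusted p of 0.0487 by edgeR, 0.147 with DESeq2, 0.171 with limma-voom and at most 0.492 without any of WT1, WT3, KO2 or KO3. Like Hoxa9 and Hoxa11, these members that fell lost the call in part of the alternative fits.

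Several members of HoxB and HoxC had narrow intervals around 0. Hoxb6 changed by -0.04 ± 0.09, with a 95% interval from -0.21 to 0.14 on the log2 scale, Hoxb8 by -0.04 ± 0.10, with an interval from -0.23 to 0.15, and Hoxc6 by -0.01 ± 0.09, with an interval from -0.18 to 0.16. Those intervals do not reach the log2 fold change of 0.64 seen in Hoxa5. Hoxb13 and Hoxc13, the rear-most genes, had a log2 fold change of -0.81 ± 0.36 and -0.56 ± 0.30. Their libraries did not overlap and their adjusted p values (edgeR) were 0.184 and 0.322. Hoxc5 had 0.30 ± 0.14, an adjusted p of 0.230 (edgeR) and overlapping libraries, and its span covers Hoxc6, Hoxc8 and Hoxc9 and overlaps Hoxc10.

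Members of a paralog group resemble each other in sequence and often share functions, and were set against each other within libraries. Within each library the Hoxa6 level was 0.147 to 0.200 of the Hoxb6 level in WT and 0.355 to 0.415 in KO, in FPKM. The Hoxa10 level was 0.388 to 0.412 of the Hoxc10 level in WT and 0.633 to 0.748 in KO. The Hoxa9 level was 0.0545 to 0.0605 of the Hoxb9 level in WT and 0.0797 to 0.0884 in KO. For all 3 pairs the ranges of the genotypes are apart. Summed over clusters, paralog group 5 went from 12.2 to 13.1 FPKM in WT to 15.8 to 16.9 in KO, paralog group 8 from 29.9 to 33.4 to 25.2 to 27.3, and paralog group 13 from 1.77 to 2.11 to 1.16 to 1.46. These pairs and groups were picked with the values known and carry no test.

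HoxD turned direction inside the cluster. Of 9 members 1 was lower, Hoxd8, and 2 were higher, Hoxd9 and Hoxd10, its next neighbours to the rear, against 4.03% lower and 4.97% higher among all genes tested. The 3 genes lie within chr2:74522268-74538277 of the deposited coordinates and do not overlap each other. Hoxd8 does overlap Hoxd3os1, a gene on the opposite strand.

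Hoxd8, a trunk gene and the leading member of HoxD, was at 5.91, 5.19 and 5.29 FPKM in WT and 2.91, 3.43 and 2.76 in KO. Every KO library was below every WT library. It fell by 0.85 ± 0.14 on the log2 scale, to 55.6% of WT, with an adjusted p of 4.26e-08 by edgeR, 2.05e-05 with DESeq2 and 0.000435 with limma-voom.

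Hoxd9, which acts with its paralogs in the lower spine and the upper limb segment, had 18, 18 and 47 counts in WT and 81, 63 and 46 in KO, or 0.660, 0.600 and 1.17 FPKM against 1.78, 1.77 and 1.34. WT3 stood out above the other WT libraries but below all KO libraries. The log2 fold change was 0.97 ± 0.27 with an adjusted p of 0.00620 by edgeR. It was 0.0600 with DESeq2, 0.0552 with limma-voom and at most 0.0609 without WT2 or KO1.

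Hoxd10, a gene of the lumbosacral cord and hindlimb, had 0, 0 and 1 counts in WT and 17, 22 and 22 in KO. The level in KO was 0.439, 0.726 and 0.753 FPKM, so the gene went from at most 1 count in a library to a low level in each KO library. The KO to WT ratio of the summed counts per library total was 52.4, with an exact 95% interval of 9.05 to 2102 that covers counting error alone. It rests on the single count in WT3. With 1 library left out, the fitted log2 fold change, 5.31 over all libraries, ran from 4.90 to 7.23, the latter without WT3. The adjusted p was 1.06e-07 by edgeR, 0.000618 with DESeq2 and 2.40e-05 with limma-voom. Hoxd10 was also the 1 Hox gene to pass edgeR's test against a 2-fold change.

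Beyond Hoxd10 the counts were too few for a call. Hoxd11 had 0, 1 and 1 counts in WT and 9, 1 and 6 in KO, a ratio of 6.87 (exact 95% interval 1.61 to 61.6), and an adjusted p of 0.261 (edgeR). Hoxd13 had 0, 1 and 2 counts in WT and 6, 3 and 11 in KO, a ratio of 5.72 (1.70 to 30.1), and an adjusted p of 0.188 (edgeR). With 1 library left out, the fitted log2 fold change of Hoxd13, 2.43 over all libraries, ran from 1.77 without KO3 to 3.11 without WT3, and that of Hoxd11, 2.54, from 2.11 without WT1 to 2.997 without KO2, with no call in any of these fits. As a sum, Hoxd9 to Hoxd13 had 18, 20 and 51 counts in WT and 113, 89 and 86 in KO. Set against Hoxd8 in the same library, that is 8.70%, 10.0% and 18.7% of the Hoxd8 counts in WT and 66.5%, 56.7% and 70.5% in KO. These genes were set against each other after their opposite calls were seen, so the ratio restates those calls and carries no test. On the front side of the cluster Hoxd1, Hoxd3 and Hoxd4 did not pass, with log2 fold changes of -1.94 ± 1.04, 0.00 ± 0.70 and -0.60 ± 0.40.

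**Figure D4:**
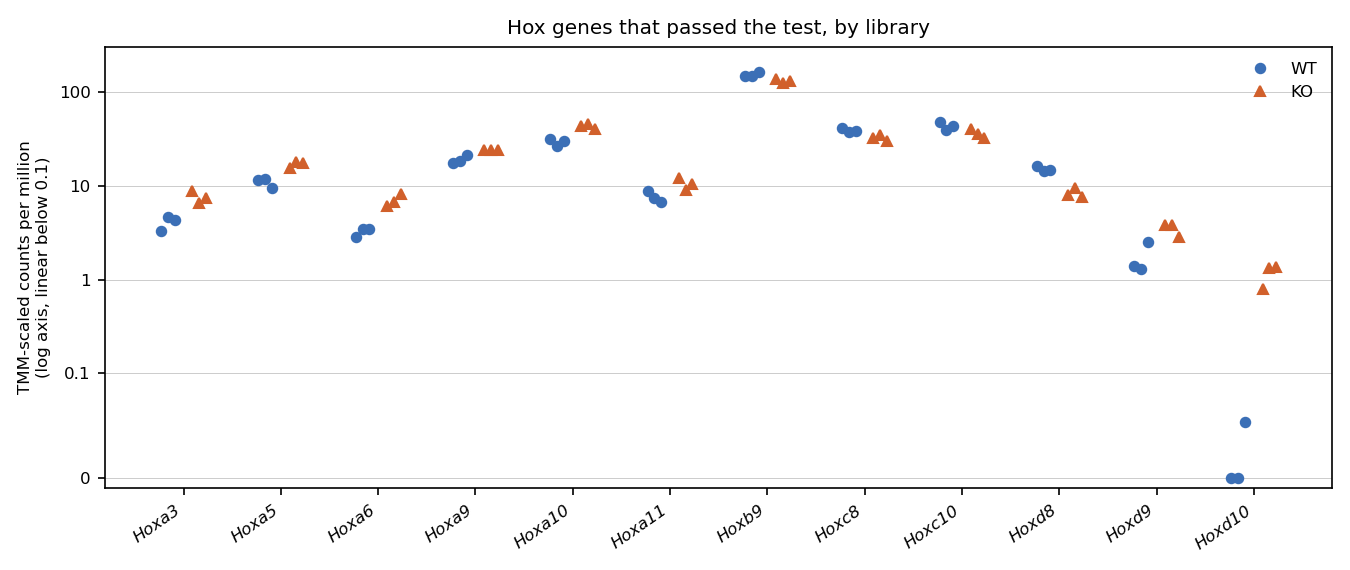
TMM-scaled CPM (y axis, logarithmic above 0.1 and linear below) of the 12 Hox genes that passed the test, with each point 1 library, circles for WT and triangles for KO. The triangles lie above the circles for the 8 members that rose and below them for Hoxb9, Hoxc8 and Hoxd8, while for Hoxc10 they overlap. The 3 WT points of Hoxd10 are at or near 0.

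The genes beside the clusters were read as well, since they share chromatin surroundings with the Hox genes. Of 22 protein-coding genes within 250 kb of a cluster 18 could be tested, and 0 passed (4 at an unadjusted p below 0.05, with edgeR), with a median log2 fold change of 0.02. With 4.97% higher and 4.03% lower among all genes tested, 0 of 18 is near the background. DESeq2 and limma-voom also called 0. Next to HoxA, Skap2, a cytoplasmic adaptor gene, changed by 0.03 ± 0.09. Next to HoxD, Lnpk and Mtx2, whose region holds enhancers of HoxD, changed by -0.20 ± 0.09 and -0.11 ± 0.09, with adjusted p values of 0.176 and 0.562 (edgeR). Skap1, next to HoxB, passed as lower when filterByExpr replaced the FPKM filter (adjusted p = 0.0475), and Atp5g2, next to HoxC, as higher without WT1.

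Inside the clusters and up to 5 kb outside lay 48 genes of other biotypes, of which 30 could be tested. There 1 was higher and 1 lower, with a median log2 fold change of 0.30 over the 30, against 4.97% higher and 4.03% lower among all genes tested. Gm53, a long non-coding RNA gene of HoxB and the leading non-coding transcript of the clusters, had 689, 766 and 1149 counts in WT and 917, 651 and 760 in KO. In TMM-scaled CPM, it fell from 56.8 ± 4.26 (SD, n = 3) to 43.3 ± 4.16, by 0.39 ± 0.09 on the log2 scale (adjusted p = 0.000132, edgeR). 5730596B20Rik, which lies within the Hoxa3 span, rose by a log2 fold change of 0.99 ± 0.31 (adjusted p = 0.0194, edgeR), from 14, 13 and 36 counts in WT to 57, 44 and 44 in KO, a call that was lost in 7 of 14 alternative fits, namely DESeq2, limma-voom, the test against a 2-fold change and without any of WT1, WT2, KO1 or KO3 (adjusted p of 0.0509 to 0.120 for these 4, edgeR). Hotair, the RNA of the HoxC rear end, had 7 to 16 counts in a library, and Hoxa11os, on the strand opposite Hoxa11, had 27 to 63. The kit did not mark strand, so sense and antisense reads over Hoxa11 cannot be told apart. The same limit holds for other members with listed genes on the opposite strand. Among them, Hoxa5, Hoxa6 and Hoxa7 overlap Hoxaas3, Hoxa3 overlaps 5 such genes, and Hoxd8 overlaps Hoxd3os1. The microRNA genes Mir196b, Mir196a-2 and Mir10b were at 0 in all libraries.

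HOX proteins depend on TALE partners for much of their DNA binding. Of 11 TALE genes tested 3 rose and 0 fell (5 and 0 at an unadjusted p below 0.05), with a median log2 fold change of 0.15. Among all genes tested 4.97% rose and 4.03% fell, or 9.08% and 7.88% of those with a mean of at least 1 CPM. Among them Tgif1, a repressor of retinoid and TGF-beta responses, rose by 0.43 ± 0.09 and Meis2, a partner of HOX proteins, by 0.32 ± 0.09 on the log2 scale, with adjusted p values of 1.60e-05 and 0.00328 (edgeR). The summed level was 362.6 to 370.6 CPM in WT and 418.95 to 437.2 in KO.

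Of 33 chromatin regulators of Hox genes 3 rose and 2 fell, with a median of 0.01, a share close to that of all genes with a mean of at least 1 CPM (9.08% higher and 7.88% lower). Kmt2b, an H3K4 methyltransferase, rose by 0.35 ± 0.08, Kdm6b, an H3K27 demethylase, by 0.31 ± 0.08, and Cbx2, a Polycomb subunit that binds H3K27 methylation, by 0.32 ± 0.11 on the log2 scale. Ezh1, a catalytic subunit of Polycomb repressive complex 2, fell by 0.41 ± 0.11 and Kdm6a, the X-linked H3K27 demethylase, by 0.33 ± 0.09. Their adjusted p values (edgeR) ran from 0.000166 to 0.0287, and Cbx2, Kdm6b and Kdm6a lost the call in 8, 6 and 3 of 14 alternative fits. WT1 was low for both Kmt2b, at 64.3 CPM against 87.6 and 93.7 in WT2 and WT3, and Kdm6b, at 39.97 against 61.1 and 61.5. Without WT1 the log2 fold change was 0.20 for Kmt2b (adjusted p = 0.00834, edgeR) and 0.14 for Kdm6b (adjusted p = 0.227). Kdm6a is among the genes that escape X inactivation, and it moved along with the sex-linked genes above.

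Of 26 signals and factors upstream of Hox genes 20 could be tested, of which 5 rose and 1 fell, with a median of 0.12, against 4.97% and 4.03% of all genes tested. The hindbrain factor Egr2 rose by 1.09 ± 0.28 on the log2 scale. Crabp2, which carries retinoic acid to its receptors, rose from 5.46 ± 0.314 FPKM (SD, n = 3) in WT to 21.4 ± 0.367 in KO. Rarb, a receptor gene that retinoic acid itself induces, rose from 0.0706 ± 0.0395 to 0.325 ± 0.0508 FPKM, and Rarg from 23.6 ± 0.740 to 33.7 ± 1.81. Crabp1, a second cytoplasmic carrier, fell from 981.3 ± 143.1 to 687.5 ± 21.5 FPKM. The adjusted p values (edgeR) of these genes ran from 5.74e-54 to 0.00245. Other retinoid genes did not pass, among them the retinoic acid-degrading enzyme Cyp26b1 at -0.34 ± 0.27, the synthesizing enzyme Aldh1a3 at -0.57 ± 0.37 and the receptor gene Rara at 0.04 ± 0.08. Cdx2, Cdx4, Fgf8 and Wnt3a, of the embryo's tail end, were at 0 in all libraries.

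Other genes that mark positions in the body were counted in the same way, and their counts and those of the cell type markers stand beside 4.97% higher and 4.03% lower among all genes tested, or 9.08% and 7.88% among genes with a mean of at least 1 CPM. Of 28 limb and body wall factors tested 7 rose and 4 fell, with a median of 0.08. Pitx1 and Tbx4, which mark the hindlimb field, rose from 2.80 ± 0.480 to 11.4 ± 1.11 FPKM and from 0.179 ± 0.0759 to 1.18 ± 0.112. Pax1 and Pax9, of the ventral somite that forms vertebrae, rose by 2.92 ± 0.35 and 1.87 ± 0.31 on the log2 scale, and Irx3 by 1.42 ± 0.15. Pax3, of the dorsal somite and neural crest, fell by 1.55 ± 0.24. The rest of those that fell were Emx2, by 0.66 ± 0.11, Lmx1b, by 0.46 ± 0.16, and Lhx9, by 0.27 ± 0.09. Lmx1b and Lhx9 lost the call in 9 and 6 of 14 alternative fits. The forelimb factor Tbx5 did not pass, with an adjusted p of 0.797 (edgeR). Of 10 cranial mesenchyme genes tested 4 rose and 1 fell, with a median of 0.72, although the heads had been removed. Among them Alx1 rose from 0.0639 ± 0.0619 to 0.709 ± 0.0294 FPKM and Dlx1 fell from 0.782 ± 0.177 to 0.375 ± 0.0745.

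Markers of the cell types a trunk culture can hold were read beside these results. Of 12 fibroblast markers, all tested, 3 rose and 3 fell. Among those that fell were Thy1, from 131.2 ± 3.06 to 64.4 ± 2.01 FPKM, and Pdgfrb, from 85.7 ± 6.30 to 51.3 ± 0.773. The other markers that passed were Col1a1, Col3a1, Fn1 and Vim, and the 3 that rose were among these. The summed level of the 12 markers was 25008 to 29492 CPM in WT and 28987 to 29817 in KO, so fibroblast markers were high in both genotypes. Of 8 epithelial markers tested 2 rose, with sums of 1.14 to 1.49 CPM in WT and 6.07 to 7.31 in KO, and Krt5 and Esrp1 were at 0. Of 7 mesothelial markers 2 rose and 1 fell, with sums of 11.98 to 15.1 and 53.3 to 60.8, mostly Msln, while Lrrn4 was at 0. Of 7 neural and neural crest markers 3 rose, with sums of 83.7 to 88.7 and 154.6 to 159.4, and Sox10 and Olig2 were at 0. Of 3 cartilage markers tested 2 rose, with sums of 13.97 to 16.2 and 35.8 to 36.5, and Matn1 and Col9a1 were at 0. Of 4 kidney and urogenital markers 2 rose, with sums of 86.0 to 95.9 and 84.7 to 90.6, and of 2 heart markers 1 fell, with sums of 6.98 to 8.21 and 1.98 to 3.30. Of 4 endothelial, 4 muscle, 4 blood and 2 liver markers 0 passed in either direction. The part of these cell types in the Hox results was not tested.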

How the data were processed

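RNA sequencing of 3 WT and 3 KO MEF libraries was analysed from the authors' processed tables. Per the labels and the study's methods, reads were trimmed with fastp, aligned with HISAT2 and counted per gene with featureCounts, and the submitters' processing notes give HISAT2 2.0.5 and featureCounts 1.5.0-p3. The authors deposited raw counts per gene, which are whole numbers, and FPKM values that they had computed from them. The study's methods name Ensembl 106 (assembly GRCm39), the processing notes name GRCm38, and none of the 39 Hox genes had the start and end of GENCODE M21 (GRCm38), so coordinates of genes are printed as deposited and sequences under their own build.

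Counts were fitted with edgeR 4.0.16 (TMM, quasi-likelihood, genotype as the one term) on 26898 genes (those whose FPKM exceeded 0 in any library), with Benjamini-Hochberg adjustment over all of them. The prior degrees of freedom were infinite, so genes that vary more than the trend can have a p-value that is too small, and DESeq2 1.42.0 and limma-voom (limma 3.58.1) were run as alternatives. Scripts ran in R 4.3.3 and Python 3.11.15. The procedures were tested on simulated data. The members and gene lists were chosen with earlier results of these data known. Values per library were given for members with an adjusted p below 0.05 and for the leading member of each cluster, and other lists named at most 6 passing genes. Counts per library of Hoxa2, Hoxd11 and Hoxd13 were added after their values were seen. So were Dlx1, Emx2, Lmx1b, Lhx9, Tbx5, Cyp26b1, Aldh1a3, Rara, the genes named beside the clusters, Hotair, Hoxa11os and genes at 0. Results of some genes are not reported here. Confidence intervals are 95% and cover counting error or the fitted SE alone.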

Additional observations from a re-analysis of the deposited data

How the results depend on the processing

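Among the 519 fitted values of single Hox genes under the alternatives, 467 kept their direction and side of the threshold or stayed uncalled, 51 lost the call, 1 gained it and no called member changed sign. In 19 of the values that were not called the sign changed. The Hox genes higher and lower in KO numbered 8 and 4, and became 5 and 2 with DESeq2, 5 and 1 with limma-voom, 1 and 0 with glmTreat against a 2-fold change, and 6 and 2 where FPKM had to be above 0 in every library, where the 2 DEGs higher in KO became 1, as with glmTreat. Leaving out 1 library gave 5 to 8 higher, 1 to 4 lower, 2 to 3 DEGs higher and 0 DEGs lower, and Hoxd9 joined Hoxa6 and Hoxd10 as a DEG without WT3 and took the place of Hoxa6 without KO3. Over all genes, 1337 were higher and 1083 lower, 157 and 43 with glmTreat, and 956 to 1650 and 650 to 1624 with 1 library left out. At a threshold of 5 FPKM, 11 members were expressed in WT and 13 in KO in place of 26 and 26, and without 1 library 25 to 26 in WT and 26 in KO.

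Replicate numbers were shared by the genotypes, but same-numbered libraries did not deviate together (correlations of -0.025, -0.016 and 0.037). With 3 libraries per genotype and WT1 apart from the others, these correlations cannot show whether same-numbered libraries were prepared together. With the replicate block 8 Hox genes were higher and 3 lower, 3 were DEGs higher and 0 DEGs lower, and over all genes 1330 were higher and 1035 lower. RLE size factors shifted the all-gene median by -0.00069 on the log2 scale. Of 795 values of genes in the other lists 711 stayed on their side of the threshold, 84 lost the call and none reversed. Depth limits Hoxd11, Hoxd12, Hoxd13, Hoxd1, Hoxd3 and Hoxa13, where few counts were read.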
